A study of Mus musculus with 22 samples.

Results

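The 9 genes described here encode the proteins that take cholesterol out of the lysosome, carry it between membranes and store it as ester: Lipa, Npc2, Npc1, Stard3, Stard4, Gramd1a, Gramd1b, Soat1 and Nceh1. They were chosen by name, with earlier results of these data known. Each name matched 1 Ensembl identifier among the 55487 genes of the deposited tables. Their polyadenylated RNA was measured by bulk sequencing in monocytes from the spleens of male C57BL/6 mice (genotype Wild Type) and in macrophages that such monocytes became after 5 days with PMA, a phorbol ester, at 200 ng/mL. Cells of both kinds grew in RPMI with fetal bovine serum and were exposed for 24 hours to vehicle or to 50 µg/mL ox-LDL, an oxidised form of LDL that macrophages take up through scavenger receptors. There were 6 libraries of vehicle monocytes (numbered 1 to 6), 5 of ox-LDL monocytes (7 to 11), 5 of vehicle macrophages (A to E) and 6 of ox-LDL macrophages (G to L). The labels do not give the age of the mice or say whether libraries came from separate mice or cultures, so p-values measure only the spread between these libraries, which may be technical.

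Lipoprotein cholesterol reaches the lysosome as ester, where lysosomal acid lipase (Lipa) frees it. NPC2 hands the free sterol to NPC1 in the lysosomal membrane, and from there it reaches other membranes, the endoplasmic reticulum among them. Soluble carriers such as STARD4 and membrane-anchored carriers such as STARD3 and the GRAMD1 (Aster) proteins move sterol between membranes. In the endoplasmic reticulum SOAT1 (ACAT1) esterifies the surplus for storage in lipid droplets, and NCEH1 hydrolyses the stored ester at neutral pH. The cycle of both enzymes is best known from the foam cells of atherosclerotic plaques.

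Libraries held 37330389 to 50257111 counts. The summed level of 10 neutrophil markers was 30237 to 45967 CPM in the monocyte libraries 5, 6, 10 and 11 and 4945 to 6071 in the other 7. CPM are counts scaled to the library total as adjusted by TMM factors. The macrophage sums were 131 to 335, and vehicle and ox-LDL monocytes each held 2 of the 4 high libraries. Monocyte libraries also held RNA of 8 dendritic cell markers at 5514 to 8990 CPM in sum (68.3 to 242 in macrophages). The sum of 9 erythroid genes was 439 to 14413 CPM in monocytes and 0.701 to 2.80 in macrophages. Not every listed gene contributed: the dendritic cell markers Xcr1, Clec9a and Siglech had means under 1 CPM in both monocyte groups. The same held for the erythroid genes Klf1 and Car1. Csf1r, the receptor of the monocyte growth factor CSF1, stood at 808 ± 235 CPM in vehicle monocytes and 4487 ± 946 in vehicle macrophages (SD, n = 6 and 5), and Ly6c2, a marker of classical monocytes, at 108 ± 111 and 1.28 ± 0.844. The macrophage libraries C, D, I and J stood apart from the other 7 on the first principal component of the macrophage libraries. Each log2 fold change given for the 9 genes is also given without these libraries where that changes a call or moves the value by over 1.5 times.

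The stretch around the start site is printed for 4 of the genes: Lipa and Soat1, whose monocyte levels differed most between ox-LDL and vehicle, Nceh1, which differed most between the cell types, and Stard3, whose stretch alone held a match to the sterol regulatory element. Each runs 5′ to 3′ over 250 bases before and 50 bases after the start in RefSeq (GRCm38.p6), and capitals mark matches on either strand to 1 of 6 motifs. RefSeq windows were found for 6 of the 9 genes. None was found for Stard4, Npc1 and Gramd1b, which were not searched for motifs. The motifs searched on both strands were the sterol regulatory element TCACNCCAC (held by 1.24% of all 32851 promoter windows), the E-box CACGTG (7.15%), the AP-1 site TGANTCA (7.81%), the PU.1 site GAGGAAGT (3.20%), the CCAAT box (37.4%) and the GC box GGGCGG (35.7%), and no motif lies within another.
Lipa, chr19:34527425-34527724, minus strand: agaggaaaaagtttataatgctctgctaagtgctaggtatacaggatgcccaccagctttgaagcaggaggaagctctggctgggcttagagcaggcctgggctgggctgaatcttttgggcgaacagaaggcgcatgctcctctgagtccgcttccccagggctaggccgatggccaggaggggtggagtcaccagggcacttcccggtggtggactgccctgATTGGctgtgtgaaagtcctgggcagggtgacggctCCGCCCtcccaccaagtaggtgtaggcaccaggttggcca
Soat1, chr1:156474279-156474578, minus strand: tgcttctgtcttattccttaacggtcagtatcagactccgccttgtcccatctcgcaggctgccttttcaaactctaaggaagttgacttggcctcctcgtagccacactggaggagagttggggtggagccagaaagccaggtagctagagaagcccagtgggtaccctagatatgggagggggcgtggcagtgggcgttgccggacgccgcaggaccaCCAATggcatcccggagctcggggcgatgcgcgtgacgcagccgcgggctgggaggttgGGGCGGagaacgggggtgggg
Nceh1, chr3:27182754-27183053, plus strand: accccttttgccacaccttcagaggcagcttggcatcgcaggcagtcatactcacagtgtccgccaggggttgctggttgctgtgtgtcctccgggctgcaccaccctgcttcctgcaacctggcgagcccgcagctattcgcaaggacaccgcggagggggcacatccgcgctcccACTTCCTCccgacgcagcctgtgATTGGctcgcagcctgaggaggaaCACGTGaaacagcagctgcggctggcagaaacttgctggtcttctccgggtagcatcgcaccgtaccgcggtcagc
Stard3, chr11:98358118-98358417, plus strand: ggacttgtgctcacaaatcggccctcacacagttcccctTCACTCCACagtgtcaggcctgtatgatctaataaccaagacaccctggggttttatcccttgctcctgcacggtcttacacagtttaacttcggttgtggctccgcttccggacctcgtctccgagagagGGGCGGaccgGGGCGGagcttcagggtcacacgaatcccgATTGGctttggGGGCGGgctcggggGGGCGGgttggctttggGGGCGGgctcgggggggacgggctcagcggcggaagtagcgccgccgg
The Stard3 window held TCACTCCAC at base -211 from the start, and 5 GC boxes. The Nceh1 window held an E-box at -26 and a PU.1 match, read here on the opposite strand as ACTTCCTC, at -73. Lipa and Soat1 each held 1 CCAAT box and 1 GC box, and all 6 windows searched (also Npc2 and Gramd1a) held a CCAAT box. None of the 6 held the AP-1 letters. A match describes these letters only and does not show binding.

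Macrophages with vehicle carried more RNA of 7 of the 9 genes than vehicle monocytes did, and none was lower. Nceh1, Soat1, Lipa and Npc1 were 3.04 to 5.19 times as high, Stard3 and Npc2 about 1.90 to 1.99 times, and Gramd1b 1.54 times, while Stard4 and Gramd1a did not pass the test. Of all 16288 genes tested, 28.5% were called higher and 35.1% lower, 63.7% in all (edgeR's quasi-likelihood test with Benjamini-Hochberg adjustment, adjusted p under 0.05). In bulk RNA a difference between these cultures can come from fewer cells of a type or from less RNA per cell, and these cannot be told apart. With ox-LDL in both cell types the same 7 genes were higher in macrophages and Stard4 was lower, against 65.4% of 15825 genes called (30.3% higher and 35% lower). The vehicle groups did not overlap for 7 of the 9 genes, where 49% of all genes did not, and the ox-LDL groups did not overlap for 8 of the 9, where 49.4% of all genes did not.

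Within a cell type, ox-LDL moved few of them past the test. In macrophages Stard4 fell and Lipa and Gramd1b rose, so 3 of the 9 genes were called, where 342 of 14543 genes were called in all (2.35%). These 342 were 142 higher (0.976%) and 200 lower (1.38%), or 92 higher and 334 lower with library totals in place of TMM scaling. The 3 called genes were also the 3 whose groups did not overlap, against 3.38% of all genes. In monocytes 0 of the 9 were called, where 4 of 16575 genes were called in all (0.0241%, all 4 higher; 5 higher and 1 lower with library totals). At an unadjusted edgeR p under 0.05, 4 of the 9 genes passed in monocytes (Soat1, Lipa, Nceh1 and Stard4) against 10.4% of all genes. In macrophages 6 of the 9 passed that threshold against 14.2% of all genes. DESeq2 and a single fit over the 4 groups called Soat1 and Lipa in monocytes, and limma voom called none of the 9 there. Both ox-LDL comparisons enter the comparison between cell types through shared libraries, so their values are set side by side below and no overlap is drawn from them.

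**Figure D1:**
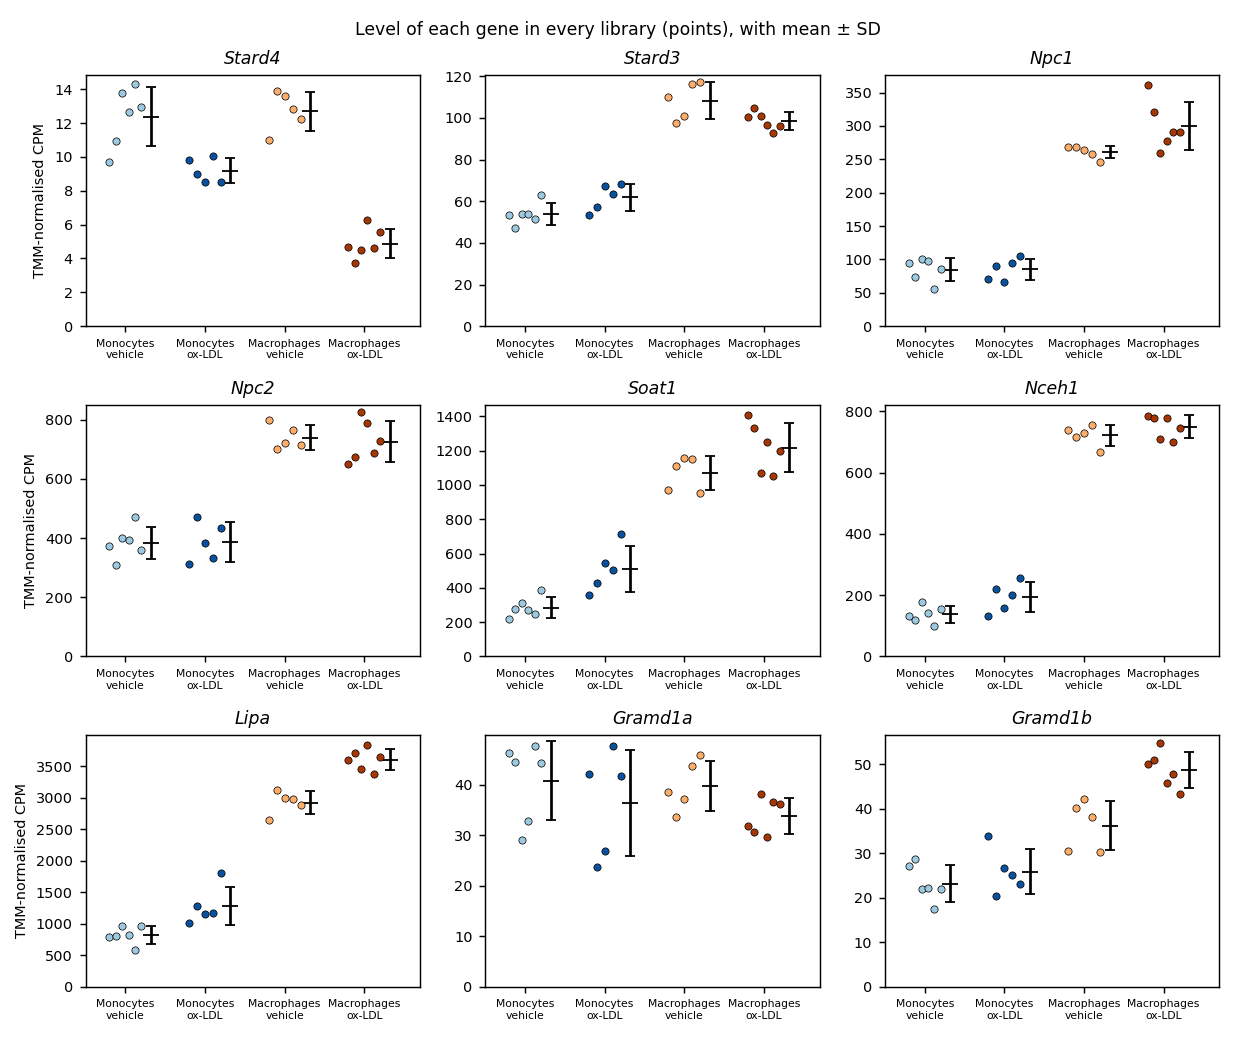
Each point is the TMM-normalised CPM of 1 library, and each bar is the mean ± SD of a group of 5 or 6 libraries (vertical axes start at 0). Lipa, Nceh1, Soat1, Npc1, Npc2 and Stard3 show 2 separate levels for the cell types, and the 6 ox-LDL macrophage libraries lie below all others for Stard4.

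Lipa, lysosomal acid lipase (ENSMUSG00000024781, GRCm38 chromosome 19, 34492318 to 34527474, minus strand), was the most abundant of the 9 genes. Vehicle monocytes ranged from 580 to 961 CPM with a median of 808, and ox-LDL monocytes held 1003, 1278, 1145, 1169 and 1795 CPM. The monocyte groups did not overlap, library 5 was the lowest with vehicle, and library 11 stood well above the other 4 with ox-LDL. The log2 fold change was 0.67 ± 0.17 (SE; 1.60-fold) with an adjusted p of 0.236 in edgeR, 0.0463 in DESeq2 and 0.152 without libraries 5, 6, 10 and 11, where it was 0.45 ± 0.13. Only 1 of the 9 genes had monocyte groups that did not overlap, against 1.39% of all genes.

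In macrophages Lipa held 2649, 3124, 2986, 2972 and 2879 CPM with vehicle and from 3381 to 3832 CPM with a median of 3621 with ox-LDL. All 6 ox-LDL libraries lay above all 5 vehicle libraries. The rise was 0.30 ± 0.06 on the log2 scale, or 1.23-fold (95% interval 0.17 to 0.44 on the log2 scale; edgeR adjusted p = 0.0248). The call held under 10 of 18 alternatives and was lost with library totals, with no filter on low counts, with 1 fit over all 4 groups, without any single one of the libraries D, E, H and L, and without C, D, I and J together, with an adjusted p of up to 0.629. Without C, D, I and J the log2 fold change was 0.32 ± 0.09 (edgeR adjusted p = 0.0769). Between the cell types Lipa was 1.82 ± 0.13 higher in vehicle macrophages and 1.46 ± 0.14 higher with ox-LDL on the log2 scale. The difference of the ox-LDL effects, macrophages minus monocytes, was -0.34 ± 0.19 (edgeR adjusted p = 0.752), or -0.14 ± 0.13 without libraries 5, 6, 10 and 11 (0.693).

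Npc2, the soluble lysosomal protein that carries cholesterol to NPC1 (ENSMUSG00000021242, chromosome 12, 84754562 to 84773152, minus strand), had a mean of 383 ± 53.2 CPM in vehicle monocytes (SD, n = 6) and 386 ± 67.1 with ox-LDL (n = 5). In macrophages it was 740.1 ± 41.3 (n = 5) and 726 ± 68.9 (n = 6). The ox-LDL log2 fold changes were 0.03 ± 0.15 and -0.03 ± 0.07, with 95% intervals of -0.29 to 0.36 in monocytes and -0.19 to 0.13 in macrophages. They were 0.10 ± 0.16 in monocytes without libraries 5, 6, 10 and 11 and -0.10 ± 0.08 in macrophages without C, D, I and J. Macrophages with vehicle stood 0.93 ± 0.11 higher on the log2 scale.

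Npc1, the lysosomal membrane protein that exports cholesterol (ENSMUSG00000024413, chromosome 18, 12189692 to 12236400, minus strand), ranged from 55.3 to 101 CPM in vehicle monocytes with a median of 90.1, and ox-LDL monocytes held 70.9, 90.3, 66.8, 94.0 and 105 CPM. The groups lay within nearly the same range. Its log2 fold change was 0.04 ± 0.17 and turned to -0.26 without libraries 5, 6, 10 and 11. Vehicle macrophages held 269, 269, 264, 258 and 246 CPM, and ox-LDL macrophages ranged from 260 to 362 CPM with a median of 291. Libraries G and H were the highest, library I lay within the vehicle range, and the difference of 0.20 ± 0.08 on the log2 scale did not pass the test (edgeR adjusted p = 0.251). Macrophages with vehicle stood 1.60 ± 0.14 above monocytes on the log2 scale. Npc1 overlaps Rmc1, a gene on the opposite strand. Rmc1 stood at 45.7 to 53.8 CPM on average in the 4 groups, here by library totals without TMM. Since no source used here gives the strand setting of the counting, reads in the shared stretch cannot be told apart.

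Stard3, a sterol carrier anchored in late endosomes (ENSMUSG00000018167, chromosome 11, 98358368 to 98381112, plus strand), had means of 53.8 ± 5.17 CPM in vehicle monocytes and 61.9 ± 6.38 with ox-LDL, and of 108 ± 8.97 and 98.6 ± 4.28 in macrophages. Its ox-LDL log2 fold changes were 0.23 ± 0.12 in monocytes and -0.14 ± 0.06 in macrophages, and neither passed the test (edgeR adjusted p = 0.535 and 0.348). Their difference of -0.34 ± 0.12 did not pass either (adjusted p = 0.535). Macrophages stood 0.99 ± 0.10 above monocytes with vehicle and 0.64 ± 0.09 with ox-LDL on the log2 scale. Stard3, whose window held the sterol regulatory element letters, was not called under ox-LDL in either cell type. Stard4, Npc1 and Gramd1b had no window to search. Whether the element goes with the ox-LDL response was therefore not tested.

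Stard4, a soluble carrier that moves cholesterol between membranes (ENSMUSG00000024378, chromosome 18, 33199355 to 33213862, minus strand), was the least abundant of the 9 and the gene that ox-LDL moved furthest in macrophages. Vehicle macrophages held 11.0, 13.9, 13.6, 12.8 and 12.2 CPM, and ox-LDL macrophages ranged from 3.73 to 6.25 CPM with a median of 4.66. All 6 ox-LDL libraries lay far below the lowest vehicle library, and the vehicle mean was 12.7 ± 1.15 CPM (SD, n = 5). The level fell by 1.38 ± 0.13 on the log2 scale, to 0.385 of the vehicle level (95% interval -1.65 to -1.10; edgeR adjusted p = 8.59e-05), and the call held under all 18 alternatives. The counts behind it were 512 to 581 per vehicle library and 159 to 268 per ox-LDL library.

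In monocytes Stard4 ranged from 9.71 to 14.3 CPM with vehicle (median 12.8), and ox-LDL libraries held 9.83, 8.98, 8.54, 10.1 and 8.52 CPM. All 5 lay below vehicle libraries 2 to 6, libraries 7 and 10 lay above vehicle library 1, and the log2 fold change was -0.41 ± 0.14 (edgeR adjusted p = 0.330). Vehicle levels of both cell types lay close together, with a log2 difference of 0.01 ± 0.13 and a 95% interval of -0.26 to 0.29, or 0.08 ± 0.13 without the libraries high in neutrophil markers and 0.03 ± 0.17 without the set of C, D, I and J. With ox-LDL, macrophages stood below monocytes by -0.94 ± 0.14 (adjusted p = 6.18e-05). The difference of the ox-LDL effects was -0.95 ± 0.18 (edgeR adjusted p = 0.0444), and Stard4 was the only 1 of the 9 among the 11 genes called for that difference of 17466 tested (0.063%, with 0.00573% higher and 0.0573% lower). That call held under 6 of 28 alternatives, with an adjusted p of 0.00035 to 0.129: it remained without library 5, 10 or J, and was lost without any other single library, with library totals, with no filter, and without C, D, I and J together.

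Gramd1a and Gramd1b encode proteins of the endoplasmic reticulum that take up cholesterol from the plasma membrane. Gramd1b (ENSMUSG00000040111, chromosome 9, 40293233 to 40531383, minus strand) held 30.4, 40.1, 42.2, 38.0 and 30.2 CPM in vehicle macrophages and ranged from 43.3 to 54.7 CPM with a median of 49.0 with ox-LDL. Every ox-LDL library lay above every vehicle library, with library L and library C the closest. The rise was 0.43 ± 0.10 on the log2 scale, or 1.35-fold (edgeR adjusted p = 0.0386). It was called under 7 of 18 alternatives only, and was lost with library totals, with 1 fit over all 4 groups, and without any single one of the libraries A, B, D, E, G, H, I, K and L (adjusted p up to 0.268). In monocytes its means were 23.2 ± 4.09 CPM with vehicle and 25.8 ± 5.09 with ox-LDL, a log2 fold change of 0.18 ± 0.15.

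Gramd1a (ENSMUSG00000001248, chromosome 7, 31130127 to 31155896, minus strand) was the only 1 of the 9 that passed no comparison. Its means were 40.8 ± 7.85 CPM in vehicle monocytes, 36.5 ± 10.5 in ox-LDL monocytes, 39.8 ± 5.02 in vehicle macrophages and 33.9 ± 3.60 in ox-LDL macrophages. In monocytes its values lay apart by library rather than by treatment: libraries 3, 4, 8 and 9 held 29.0, 32.8, 23.6 and 27.0 CPM, and the other 7 held 41.8 to 47.8. These 4 libraries held 9038 to 14413 CPM of erythroid markers and were low in neutrophil markers, the other 7 held 439 to 9643 CPM of erythroid markers, and library 11 at 9643 lay within the range of the 4. The part of either in the Gramd1a level was not tested. In macrophages the log2 fold change was -0.23 ± 0.09 (edgeR adjusted p = 0.262).

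Soat1, the enzyme that esterifies cholesterol for storage (ENSMUSG00000026600, chromosome 1, 156424525 to 156474331, minus strand), ranged from 217 to 386 CPM in vehicle monocytes with a median of 273. Ox-LDL monocytes held 358, 429, 544, 504 and 713 CPM. The groups overlapped only through vehicle library 6, which lay above ox-LDL library 7. The log2 fold change of 0.87 ± 0.19 (1.83-fold, 95% interval 0.45 to 1.29) was the largest of the 9 genes in monocytes and did not pass edgeR's test over all genes (adjusted p = 0.175). It passed in DESeq2 (adjusted p = 0.0110), in the single fit over the 4 groups (0.00888) and with the neutrophil-high and neutrophil-low libraries as a covariate (0.0315), and it was 0.74 ± 0.17 without libraries 5, 6, 10 and 11 (0.103).

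In vehicle macrophages Soat1 held 970, 1111, 1159, 1153 and 955 CPM, and with ox-LDL it ranged from 1053 to 1408 CPM with a median of 1223. The groups overlapped, and the log2 fold change was 0.19 ± 0.09 (edgeR adjusted p = 0.376), or 0.31 ± 0.11 without libraries C, D, I and J (0.187). The difference of the ox-LDL effects was -0.65 ± 0.22 (adjusted p = 0.449), so the larger value in monocytes was not shown to differ from that in macrophages. Macrophages stood 1.89 ± 0.14 above monocytes with vehicle and 1.23 ± 0.16 with ox-LDL on the log2 scale. Soat2, the second sterol acyltransferase, known from liver and intestine, stood at 1.96 ± 1.12 CPM in vehicle monocytes and 0.228 ± 0.105 in vehicle macrophages.

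Nceh1, the neutral cholesterol ester hydrolase (ENSMUSG00000027698, chromosome 3, 27182965 to 27284608, plus strand), differed most between the cell types. Vehicle monocytes ranged from 99.5 to 177 CPM with a median of 137, and vehicle macrophages held 740, 715, 731, 755 and 668 CPM. The macrophage level was 5.19-fold that of monocytes, or 2.38 ± 0.14 on the log2 scale (edgeR adjusted p = 4.54e-09). Ox-LDL monocytes held 133, 221, 157, 199 and 255 CPM, with libraries 7 and 9 inside the vehicle range and a log2 fold change of 0.53 ± 0.19 (adjusted p = 0.351), or 0.28 without libraries 5, 6, 10 and 11. In macrophages ox-LDL left a log2 difference of 0.05 ± 0.06, with a 95% interval of -0.07 to 0.18, or 0.09 ± 0.08 without libraries C, D, I and J.

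**Figure D2:**
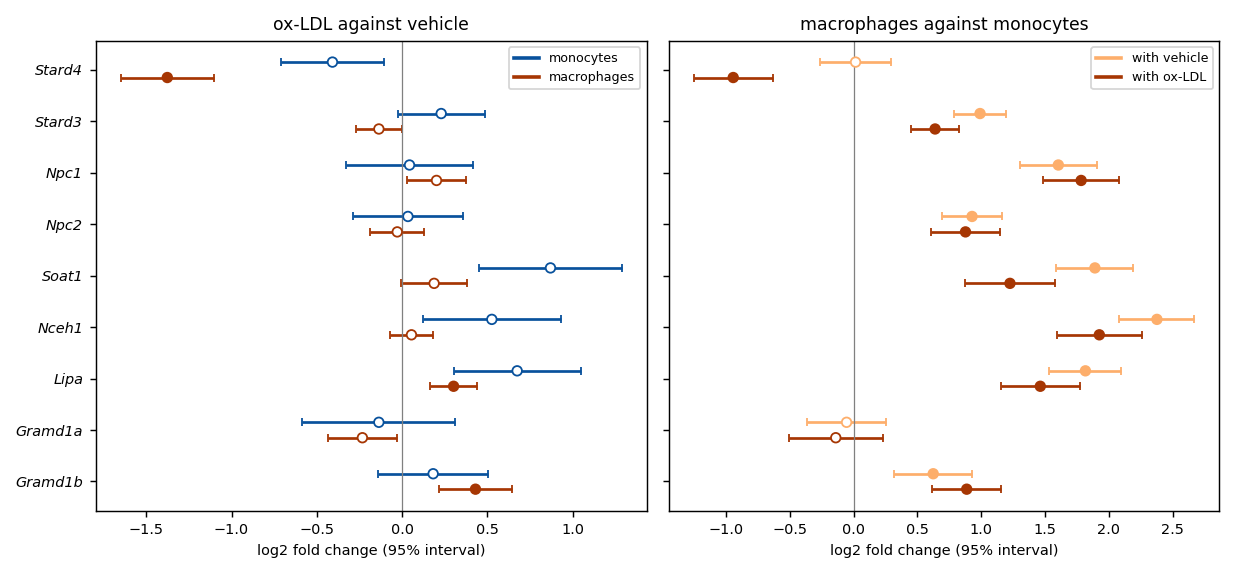
Points are log2 fold changes from edgeR's quasi-likelihood fits and bars their 95% intervals, with filled points for genes called at an adjusted p under 0.05. With ox-LDL (left), Stard4 at -1.38 stands apart in macrophages and the widest intervals are those of monocytes. Between the cell types (right), 7 genes are called to the right of 0 with either treatment. Stard4 lies at 0.01 with vehicle, where it is not called, and at -0.94 with ox-LDL.

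Macrophage markers were also read in the monocyte libraries. The summed level of 10 macrophage markers was 6066 to 8402 CPM in vehicle monocytes and 8665 to 14263 in ox-LDL monocytes, none of the 10 was at 0, and 0 of the 10 were called, with a median log2 fold change of 0.12. Chosen after their values were seen, Lgals3, which encodes galectin-3, stood at 3597 ± 392 and 6180 ± 1165 CPM, and Gpnmb, a lysosomal glycoprotein, at 1427 ± 427 and 2976 ± 1408. Cd68, also a macrophage marker, stood at 787 ± 121 CPM with vehicle and 1182 ± 247 with ox-LDL. Other markers of the list, also chosen after their values were seen, did not stand higher in the same way, with Adgre1, which encodes F4/80, at 261 ± 60.9 and 271 ± 42.5 CPM, Mertk, a receptor for dying cells, at 66.3 ± 25.8 and 61.6 ± 20.4, and C1qa, a complement subunit, at 230 ± 111 and 163 ± 78.7. Library 11 was the highest of the 5 ox-LDL monocyte libraries in the marker sum and in Lipa, Soat1, Nceh1 and Npc1. In macrophages the sums were 28907 to 37445 CPM with vehicle and 31004 to 42791 with ox-LDL. The part of the macrophage markers in these results was not tested.

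Levels were set against each other per gene length, in the deposited TPM. The deposited tables give 1 length per gene, such as 5438 bases for Npc2 and 11317 for Npc1. These need not be the lengths of the transcripts present, and the order between genes depends on them. With vehicle, monocytes held Lipa at 333 ± 76.9 TPM, Npc2 at 191 ± 16.6, Soat1 at 79.4 ± 18.0 and Nceh1 at 71.8 ± 18.1 (SD, n = 6). Lipa overlapped Npc2 through library 5 alone, and Soat1 overlapped Nceh1. Stard3 followed at 41.2 ± 4.91 TPM, Gramd1a at 21.1 ± 3.97 and Npc1 at 20.7 ± 5.50 were level within their spread, and Gramd1b at 6.14 ± 1.66 and Stard4 at 6.01 ± 0.764 closed the order. In vehicle macrophages Lipa stood at 1212 ± 145 TPM, and Nceh1 at 385 ± 28.7 and Npc2 at 381 ± 17.0 shared the next places within their spread (SD, n = 5). Soat1 followed at 307 ± 44.2 TPM, Stard3 at 85.4 ± 8.49 and Npc1 at 64.7 ± 4.25. With ox-LDL, macrophage Lipa was at 1481 ± 86.3 TPM and Stard4 at 2.45 ± 0.509 (SD, n = 6), and the order of all 9 was that of vehicle macrophages. The order by deposited FPKM, which uses the same gene lengths, was the same in each of the 4 groups.

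**Figure D3:**
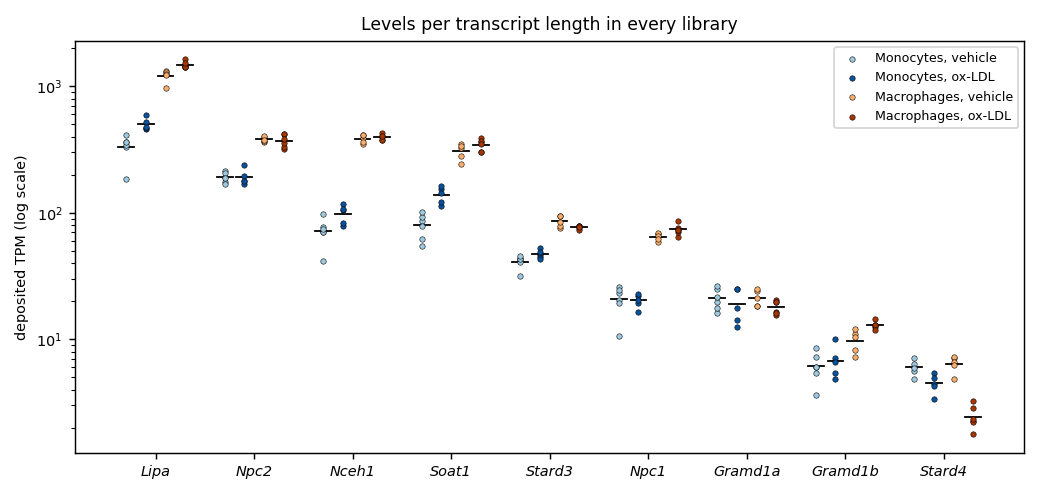
Deposited TPM of each gene in every library on a log scale, with a bar at each group mean. Lipa is highest in all 4 groups by mean and Stard4 lowest, and Nceh1 moves from about the level of Soat1 in monocytes to that of Npc2 in macrophages.

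Ratios of 2 genes within the same library describe how the partners of a step moved against each other. CPM are not corrected for gene length, so the size of a ratio does not rank its 2 genes. By TPM, vehicle macrophages held less Soat1 (307 ± 44.2) than Nceh1 (385 ± 28.7). Ox-LDL macrophages held less Gramd1b (13.0 ± 0.881 TPM) than Gramd1a (18.0 ± 2.14). The CPM ratio of the esterifying to the hydrolysing enzyme, Soat1 to Nceh1, had a median of 2.12 in vehicle monocytes (1.65 to 2.51) and 2.68 with ox-LDL (1.95 to 3.48). In macrophages it was 1.53 with vehicle (1.31 to 1.59) and 1.60 with ox-LDL (1.50 to 1.79), so every macrophage library of the vehicle group lay below every monocyte library. Lipa to Nceh1 had a median of 5.93 in vehicle monocytes and 4.09 in vehicle macrophages, and ox-LDL macrophages held 4.58 to 4.92, above all vehicle macrophages (3.58 to 4.37). Gramd1b to Gramd1a had medians of 0.615 and 0.803 in monocytes with vehicle and ox-LDL, and of 0.869 (0.658 to 1.19) and 1.49 (1.20 to 1.66) in macrophages, where the treatments touched at their ends without overlapping. Npc1 to Npc2 had medians of 0.245 and 0.227 in monocytes and 0.345 and 0.411 in macrophages. Soat1 to Lipa overlapped in all 4 groups, with medians of 0.338 and 0.397 in monocytes and 0.366 and 0.327 in macrophages. These ratios are unequal changes of 2 genes and carry no test of their own.

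**Figure D4:**
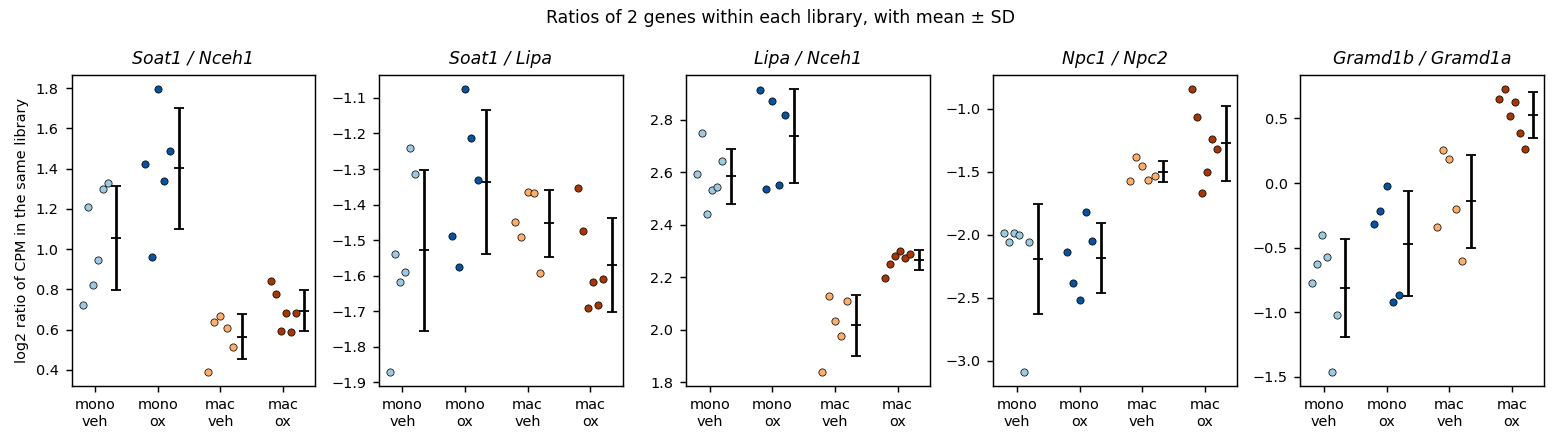
Each point is the log2 ratio of the CPM of 2 genes in 1 library, with the mean ± SD of each group beside it. Lipa to Nceh1 and Gramd1b to Gramd1a separate ox-LDL from vehicle macrophages without overlap, and Soat1 to Nceh1 is lower in vehicle macrophages than in vehicle monocytes.

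Genes of the surrounding pathways were read from 7 lists. Of 15 tested genes that SREBP-2, the sterol-sensing transcription factor, is known to drive, 13 fell in ox-LDL macrophages and 2 did not pass the test (Fdft1 and Dhcr7, named after their values were seen), with a median log2 fold change of -0.95 against 0.0003 over all genes. Sqle, squalene epoxidase, went from 39.0 ± 2.85 to 14.7 ± 4.18 CPM, a log2 fold change of -1.40 ± 0.17. Stard4, at -1.38, lay within the range of these genes. In monocytes 0 of the 15 were called, the median was -0.17, and Srebf2, which encodes SREBP-2, stood at 497 ± 82.3 with vehicle and 275 ± 65.2 CPM with ox-LDL (edgeR adjusted p = 0.164). The difference of the ox-LDL effects was called for 5 of the 15, all lower in macrophages, with Idi1, an isomerase of the sterol pathway, at -1.45 ± 0.26, a call lost under 16 of 28 alternatives, with library totals and without any single one of 15 libraries (adjusted p up to 0.105). Those 15 were 1, 2, 5, 6, 8 and 9 of the monocytes and all macrophage libraries other than G and J. For Sqle the difference was -1.40 ± 0.27, and the call was lost under 19 of the 28, with library totals and without any single library other than 2, 10, 11 and J (up to 0.133). For Insig1, the sterol-dependent anchor of SREBP, the difference was -1.16 ± 0.19, and the call was lost without library 8, 9 or A (up to 0.0632). Between vehicle macrophages and monocytes, 13 of the 15 were lower and 2 higher, with a median of -1.64. Over all genes 35.1% were lower and 28.5% higher.

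Of 9 tested LXR target genes, 3 rose in ox-LDL macrophages and none fell. They were Abcg1, a cholesterol exporter (158 ± 15.2 to 304 ± 26.3 CPM; 0.94 ± 0.08 on the log2 scale), Abca1, the exporter to lipid-poor apolipoprotein A-I (0.71 ± 0.15), and Mylip, a ubiquitin ligase (0.57 ± 0.10). The call of Abcg1 held under all 18 alternatives, that of Mylip was lost in the single fit over all 4 groups (adjusted p = 0.151), and that of Abca1 was lost without any single macrophage library other than A, I and J (adjusted p up to 0.506 in the fit over all groups). None of the 9 was called in monocytes. Of 20 genes listed as lysosomal, which include the transcription factors Tfeb, Tfe3 and Mitf, 2 rose in ox-LDL macrophages. They were Psap, the saposin precursor (0.71 ± 0.16), and Gla, alpha-galactosidase (0.45 ± 0.11). The other 18 did not pass, and the list's median was 0.09. The call of Psap was lost without any single macrophage library other than A, D, I and J, and that of Gla without any other than C and D (adjusted p up to 0.437 and 0.133). In monocytes 0 of the 20 were called, with a median of 0.17, and Ctsb, cathepsin B, stood at 5022 ± 1207 and 7785 ± 942 CPM (adjusted p = 0.220). Between vehicle macrophages and monocytes 17 of the 20 were higher and 1 lower, with a median of 1.51. Over all genes 28.5% were higher and 35.1% lower. Ctsl, cathepsin L, was 3.54 ± 0.23 higher and Ctsd, cathepsin D, 2.86 ± 0.15 higher on the log2 scale.

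Genes listed as relatives of the sterol carriers did not pass the test with ox-LDL in either cell type, at 0 of 21 tested in each. They included Osbpl8, a protein of the endoplasmic reticulum (0.29 ± 0.10 in macrophages, adjusted p = 0.201), and Tspo, a mitochondrial outer membrane protein (-0.03 ± 0.07). Between vehicle macrophages and monocytes 12 of 22 were higher and 5 lower, where 28.5% of all genes were higher and 35.1% lower. Osbpl10 and Stard6 were among the higher and Gramd1c and Gramd2, relatives of Gramd1a, among the lower, and each of these 4 had a mean under 2 CPM in both groups. Of 10 partners of the lysosomal export step, 9 were higher in vehicle macrophages, against the same 28.5% of all genes. With ox-LDL 0 of the 10 passed in either cell type. Lamp2, a lysosomal membrane protein that binds cholesterol, went from 312 ± 46.6 in monocytes to 972 ± 42.8 CPM in macrophages, Scarb2 (LIMP-2) from 104 ± 8.18 to 368 ± 17.7, and Gpr155, a lysosomal cholesterol sensor, from 4.25 ± 1.33 to 16.6 ± 2.50.

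Among 8 tested acyl transfer genes, Acsl3, an acyl-CoA synthetase of lipid droplets, fell in ox-LDL macrophages from 14.3 ± 1.10 to 9.00 ± 1.74 CPM (-0.67 ± 0.13; edgeR adjusted p = 0.0174), a call lost in the single fit over all 4 groups (0.310). Acsl4, which prefers arachidonic acid, rose by 0.29 ± 0.07 (edgeR adjusted p = 0.0407), a call lost under 13 of 18 alternatives, among them leaving out any single macrophage library other than A and I (up to 0.682). None of 9 was called in monocytes. Dgat2, which makes triglyceride, stood at 68.0 ± 54.7 CPM in vehicle monocytes and 0.957 ± 0.309 in vehicle macrophages, and Mogat2 at 4.90 ± 4.35 and 0.0310 ± 0.0478. Of 11 other ester hydrolase and droplet coat genes tested in monocytes, 1 rose with ox-LDL. Plin2, a coat protein of lipid droplets, stood at 534 ± 51.1 CPM with vehicle and 1199 ± 305 with ox-LDL, a log2 fold change of 1.19 ± 0.17 (edgeR adjusted p = 0.0263), and the call was lost without libraries 5, 6, 10 and 11 together or without any single monocyte library other than 7 and 10 (up to 0.126). In macrophages 0 of 8 were called, and Plin2 stood at 1373 ± 140 with vehicle and 1589 ± 188 CPM with ox-LDL (adjusted p = 0.312). The difference of the Plin2 effects was -0.96 ± 0.19 and did not pass (adjusted p = 0.0655). Lipe, hormone-sensitive lipase, was lower in vehicle macrophages, at 17.0 ± 2.06 against 63.4 ± 7.93 CPM.

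**Figure D5:**
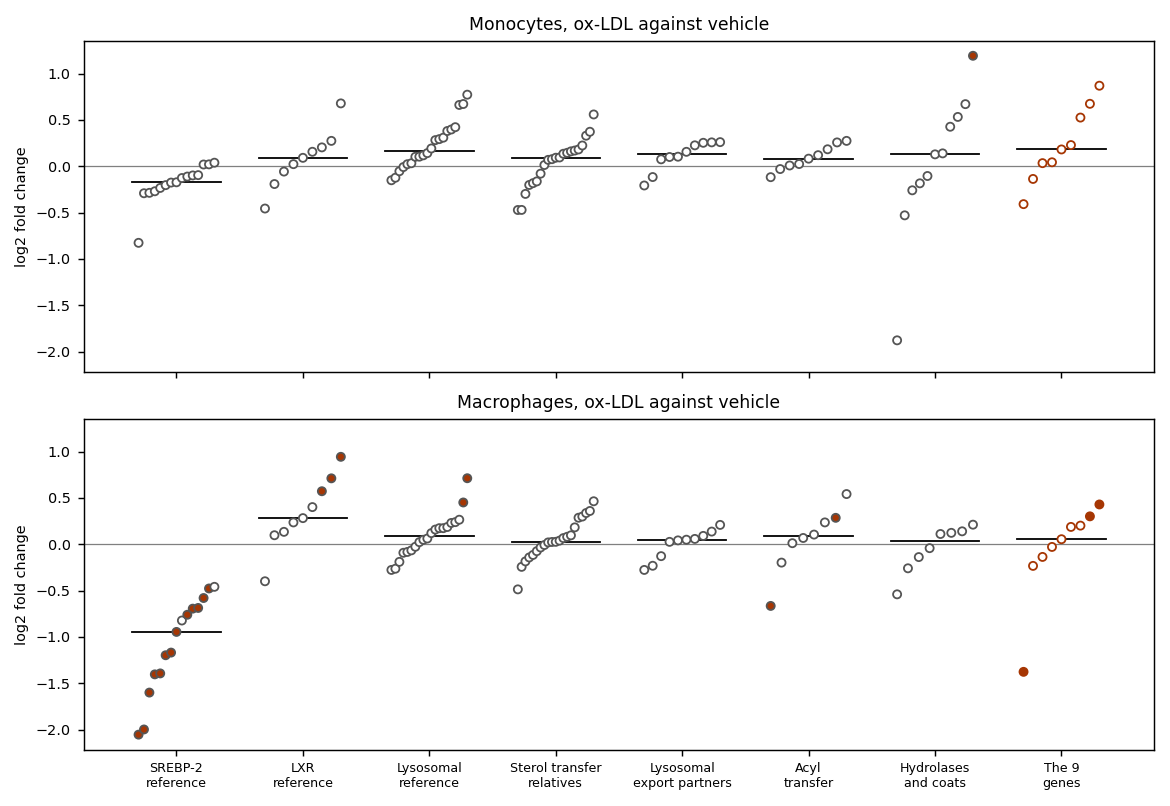
Each point is the log2 fold change of 1 gene with ox-LDL, in monocytes (top) and macrophages (bottom), filled where called at an adjusted p under 0.05, with a bar at each list's median. In macrophages the SREBP-2 genes lie between -2.05 and -0.46 and the lowest of the 9 genes, Stard4 at -1.38, lies among them. In monocytes the 1 filled point is Plin2.

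Within groups, the 9 genes varied together to different degrees. Over the 22 libraries, with each group's mean removed from the log2 CPM, Lipa and Nceh1 had a Pearson r of 0.873, Npc1 and Nceh1 of 0.834, Soat1 and Lipa of 0.741 and Npc1 and Lipa of 0.720, while Npc1 and Npc2 had an r of -0.107 and Npc2 and Gramd1b of -0.683. Among the 8118 other genes whose mean CPM reached 10, Nceh1 ranked first for Lipa, followed by Lamp2 (0.854) and Galc, galactosylceramidase (0.849). Atp6v1a, a subunit of the proton pump that acidifies lysosomes, ranked first for Nceh1 (0.906). For Npc1 the most alike was Tep1 (0.861), for Npc2 Tmem14c (0.916), for Stard3 Gpaa1 (0.748), for Stard4 Rnf11 (0.830), for Gramd1a Klhl6 (0.919), for Gramd1b Actn4 (0.862) and for Soat1 Rab3gap2 (0.835), with Cd36, a scavenger receptor for ox-LDL, also among the first 3 for Soat1 (0.815). The points share library preparation, depth and the makeup of the cultures, so these values are descriptions without a test.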

How the data were processed

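RNA was measured in 22 libraries in 4 groups by the labels. The authors aligned reads with STAR 2.7.9a to GRCm38 and counted them with featureCounts 2.0.3, per the submitters' processing notes. The kit was a SMARTer low-input kit for polyadenylated RNA, per the labels' protocols. No source used here gives the strand setting, the handling of reads with several matches or the annotation release. The deposited counts are whole numbers per gene that no step had scaled. The deposited CPM, FPKM and TPM are these counts scaled by library total, by total and gene length, and by gene length to a fixed sum, and 0 values departed from these relations. Positions of 99.4% of genes shared with GENCODE M21 were the same there. The highest correlation between libraries was 0.997, and none was counted as a copy.

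Each comparison was fitted over all genes with edgeR 4.0.16 in R 4.3.3 (TMM factors, filterByExpr, quasi-likelihood F test, 2-sided, Benjamini-Hochberg adjustment over the genes tested), on the libraries of its 2 groups, or of all 4 groups for the difference of the ox-LDL effects. A gene was called at an adjusted p under 0.05. Log2 fold changes carry their standard error. CPM in the text, other than those of Rmc1, use TMM factors over all libraries, and errors of CPM and TPM are SD. The fit was tested on simulated counts. Depth was 37330389 to 50257111 counts per library, and intervals cover the spread between libraries only. The alternatives were DESeq2 1.42.0, limma 3.58.1 voom, library totals in place of TMM, no filter, 1 fit over all groups and leaving out each library. Added after seeing the data were fits without the monocyte libraries 5, 6, 10 and 11, without the macrophage libraries C, D, I and J, and with these sets as a covariate.

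The 9 genes, the 7 gene lists and the 10 marker lists were chosen with earlier results of these data known. From each list the text names up to 4 called genes by size of fold change, or the 2 most abundant where none was called. The values of 1 listed gene are not reported here, though the counts and medians of its list include it. Genes most alike to a member are the first 1 to 3 by Pearson r.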

Additional observations from a re-analysis of the deposited data

Results flagged for a closer look

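The ox-LDL effect on Stard4 was called as different between the cell types in edgeR's main fit, by a test of the difference itself. The log2 fold change was -1.38 ± 0.13 in macrophages and -0.41 ± 0.14 in monocytes. The interaction was -0.95 ± 0.18, with an adjusted p of 0.0444 in edgeR and 0.00035 in DESeq2. The edgeR adjusted p was 0.0785 with library totals, 0.0877 with no filter and 0.129 without libraries C, D, I and J. All 6 ox-LDL macrophage libraries lay below all 5 vehicle macrophage libraries, which bears on the macrophage effect only. The call of the difference held under 6 of 28 alternatives and was lost without most single libraries. Of 36 groups of the 9 genes tested for a library far from the rest, 0 held one, where chance flags about 1 group in 20.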

How the results depend on the processing

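No paired analysis was possible because the groups share no replicate numbers. In macrophages, 3 of the 9 genes were called with ox-LDL, against 1 with library totals, 1 with 1 fit over all 4 groups and 1 to 3 when a library was left out. In monocytes 0 were called, against 2 in DESeq2, 2 in the fit over all 4 groups, 1 with the neutrophil-high and neutrophil-low libraries as a covariate and 0 with any library left out. For the difference of the effects 1 was called, against 0 with library totals, no filter or without C, D, I and J, and 0 to 1 when a library was left out. The cause was not tested. The 7 and 8 called between the cell types kept within 1.5 times of that count under every alternative run.

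Some values of genes that were not called changed sign. In monocytes with ox-LDL, library totals gave Npc1 -0.028, Npc2 -0.017 and Apoe -0.022, and leaving out libraries 5, 6, 10 and 11 gave Npc1 -0.26 and Osbpl8 -0.074. In macrophages, Pnpla2 was 0.035 without C, D, I and J. Between vehicle macrophages and monocytes, Stard4 was -0.0048 in DESeq2 and -0.067 with library totals, and Gramd1a was 0.034 with no filter and 0.033 without the neutrophil-high libraries, where it was 0.075 with ox-LDL and 0.068 for the difference of effects. For that difference, Apoe was -0.038 and Lpcat3 0.043 without the neutrophil-high libraries, and -0.074 and 0.0058 without C, D, I and J. Leaving out 1 library gave ranges that crossed 0: in monocytes Npc1 -0.047 to 0.12, Npc2 -0.045 to 0.12, Apoe -0.045 to 0.11, Osbpl8 -0.0042 to 0.12 and Psap -0.22 to 0.41; in macrophages Npc2 -0.069 to 0.0012, Tspo -0.070 to 0.027, Pnpla2 -0.077 to 0.024 and Lamp2 -0.00024 to 0.077. Between vehicle cell types Stard4 ran from -0.054 to 0.11 and Gramd1a from -0.15 to 0.043, and for the difference of effects Npc2 from -0.11 to 0.046, Lpcat3 -0.078 to 0.031, Gramd1a -0.19 to 0.043, Acsl5 -0.10 to 0.048 and Apoe -0.0083 to 0.28.

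Counts over all genes moved further. In monocytes 4 genes were called, against 161 in DESeq2, 7 in voom, 9 with no filter, 259 in the fit over all groups, 108 with the covariate and 0 without the neutrophil-high libraries; leaving out library 7 gave 7, library 10 gave 8, library 3 gave 1 and each other library 0. In macrophages 342 were called, against 698 in DESeq2, 80 in the fit over all groups, 804 with the covariate, 150 without B, 150 without E, 188 without H and 187 without L. For the difference of effects 11 were called, against 60 in DESeq2, 5 with library totals, 129 without the neutrophil-high libraries, 44 without library 10, 18 without 7, 7 without 5, 6 without G, 5 without B or E, 4 without D, I or L, 3 without 1, 6, C, H or K and 1 without 8, 9 or A. Depth limited Stard4 most, at 159 to 268 counts in the ox-LDL macrophage libraries.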
